A study of Mus musculus with 2 samples.

Results

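Early neutrophils, the circulating neutrophils that still carry transcripts of specific granule proteins, were picked from a droplet single-cell RNA sequencing table of mouse blood myeloid cells. A cell was counted as early when the authors had labelled it Neutrophil and its raw unique molecular identifiers (UMIs, each standing for 1 captured transcript) of Camp, Ltf and Ngp summed to at least 3. The rule gave 671 of 3825 neutrophils and of 5793 cells in all. They were set against the 2123 late neutrophils in which the sum was 0, in each library apart, and the 1031 neutrophils with a sum of 1 to 2 are called middle cells. The aged library came from mice of 18 to 24 months and the young library from mice of 2 to 4 months, all of them C57BL/6, and all were sampled 24 h after MCAo, a transient closure of the middle cerebral artery near its origin that serves as a model of stroke. No group without stroke was analysed here, so both libraries share the stroke. Cells had been sorted by the surface antigens CD11b and Ly6G, and the labels do not say how many mice went into a library. With 1 library for each age no difference has a replicate check, no test was made, and every ratio compares these libraries and not ages. Intervals are 95%, exact, and cover counting error only.

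Neutrophils load their granules in an order fixed by the stage of maturation in the bone marrow. Azurophilic granules, with myeloperoxidase and serine proteases, are filled in promyelocytes, specific granules, with lactoferrin and cathelicidin, in myelocytes and metamyelocytes, and gelatinase granules in band cells. The messages are switched off as the cell matures, so blood neutrophils normally hold granule proteins but little of the messenger RNA for them. Camp encodes the antimicrobial cathelicidin, Ltf the iron-binding lactoferrin and Ngp neutrophilic granule protein, a cystatin-like protein of specific granules in the mouse.

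The promoters of the 3 genes that define the cells and of Ifitm6 and Cd177, which were higher in early cells of both libraries, are shown because granule genes of this stage are known targets of the C/EBP family of transcription factors. Each is the RefSeq window (GRCm38.p6) from 250 bases before to 50 bases after the start of the gene, written 5′ to 3′ on the strand of the gene, and all 5 genes had an entry. Capitals mark matches to the C/EBP-type motif TTGCNNAA on either strand.
Ngp (chr9:110419558-110419857, plus strand): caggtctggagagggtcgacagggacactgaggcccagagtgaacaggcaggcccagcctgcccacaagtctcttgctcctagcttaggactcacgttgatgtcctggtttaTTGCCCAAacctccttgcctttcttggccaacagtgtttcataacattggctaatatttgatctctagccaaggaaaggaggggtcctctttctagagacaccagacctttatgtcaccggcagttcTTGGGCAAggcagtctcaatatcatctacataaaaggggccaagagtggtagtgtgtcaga
Camp (chr9:109849407-109849706, minus strand): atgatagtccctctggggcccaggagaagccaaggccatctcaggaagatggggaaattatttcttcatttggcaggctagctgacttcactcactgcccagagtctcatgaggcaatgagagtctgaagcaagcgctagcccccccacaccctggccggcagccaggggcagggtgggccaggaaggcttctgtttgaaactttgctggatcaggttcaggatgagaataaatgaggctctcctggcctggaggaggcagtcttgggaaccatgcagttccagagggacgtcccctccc
Ltf (chr9:111019042-111019341, plus strand): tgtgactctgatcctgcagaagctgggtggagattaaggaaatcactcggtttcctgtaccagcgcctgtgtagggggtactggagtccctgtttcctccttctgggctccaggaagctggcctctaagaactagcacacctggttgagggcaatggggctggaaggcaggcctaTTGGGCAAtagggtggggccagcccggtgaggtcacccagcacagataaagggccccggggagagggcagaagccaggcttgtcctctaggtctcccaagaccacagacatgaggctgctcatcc
Ifitm6 (chr7:141016843-141017142, minus strand): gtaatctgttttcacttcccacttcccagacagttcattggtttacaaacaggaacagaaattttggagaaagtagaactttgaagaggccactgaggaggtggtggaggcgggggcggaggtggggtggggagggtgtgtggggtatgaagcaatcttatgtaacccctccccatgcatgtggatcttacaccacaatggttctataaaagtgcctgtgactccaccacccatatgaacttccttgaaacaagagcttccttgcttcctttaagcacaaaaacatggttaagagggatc
Cd177 (chr7:24760262-24760561, minus strand): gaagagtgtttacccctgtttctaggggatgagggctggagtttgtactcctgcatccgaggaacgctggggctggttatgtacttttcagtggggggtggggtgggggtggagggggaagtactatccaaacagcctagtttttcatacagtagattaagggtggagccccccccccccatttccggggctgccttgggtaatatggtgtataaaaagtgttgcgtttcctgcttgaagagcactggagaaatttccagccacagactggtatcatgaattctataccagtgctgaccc
The Ngp window held 2 matches, the Ltf window 1, and these letters were not in the windows of Camp, Ifitm6 and Cd177. The motif was present in 10.8% of 32817 such windows of all genes. The PU.1-type motif GAGGAA, searched on both strands and present in 28.3% of windows, was found once in the window of Ltf, once in that of Cd177 and in none of the other 3. Of the other granule genes searched, Lcn2 and Mmp8 had 1 C/EBP-type match each, and Chil3 and Lyz2 had 0. A match describes the letters alone. On GRCm38 the genes Camp (chr9:109847379-109849617), Ngp (chr9:110419747-110423012) and Ltf (chr9:111019271-111042767) lie near each other on chromosome 9.

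Ngp chose nearly all of the cells. It held 90.2% of the 5317 UMIs of the 3 genes in aged early cells and 97.2% of 885 UMIs in young early cells. Ngp UMIs alone were found in 431 (80.0%) of 539 aged and 112 (84.8%) of 132 young early cells. A Camp UMI was seen in 103 aged early cells (19.1%) and 19 young ones (14.4%), and an Ltf UMI in 20 aged cells (3.71%) and 1 young cell. All 3 transcripts were found together in 15 aged cells, whose median sum was 66, and in no young cell. The sum had a median of 5 in both libraries, and 128 (23.7%) of aged and 25 (18.9%) of young early cells reached 10 or more. The highest sum was 416 in the aged library, in a cell of 4847 UMIs with 96 of Camp, 25 of Ltf, 295 of Ngp and 116 of Lcn2, and 30 in the young library. That aged cell, which had no UMI of the proliferation genes Mki67 and Stmn1, held 7.82% of the UMIs of the 3 genes in aged early cells. At the threshold, 158 aged and 32 young neutrophils had a sum of 3 and were taken in, and 227 aged and 65 young had a sum of 2 and were left out.

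Early cells made up 20.1% (18.6% to 21.7%) of 2681 neutrophils in the aged library and 11.5% (9.74% to 13.5%) of 1144 in the young library. These values chose the cells and are a description. The count is not scaled to depth, and neutrophils had a median of 1914 UMIs in the aged and 1636.5 in the young library. With every cell thinned at random to 1000 UMIs the shares were 9.29% (8.22% to 10.4%) and 5.86% (4.57% to 7.38%). The aged share was above the young one at both depths, by more than the counting intervals. Proportions of the sorted fractions, which could set these shares, are not stated in the labels.

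**Figure D1:**
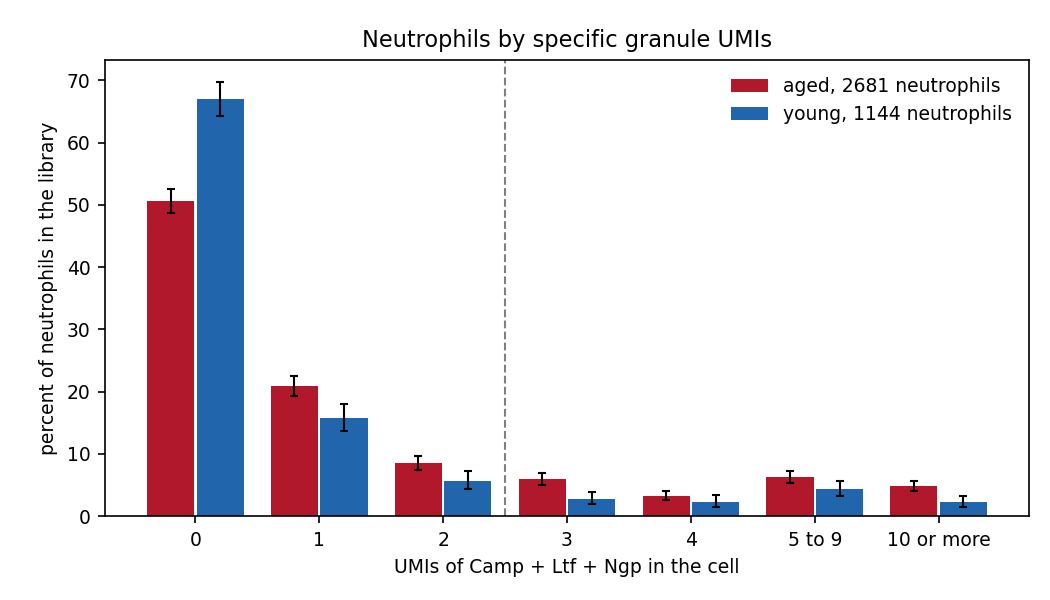
Percent of neutrophils in each library (y axis) by the UMIs of Camp, Ltf and Ngp summed in the cell (x axis), aged left of young, with exact binomial 95% bars for counting error. The dashed line is the threshold of 3. The aged library held less of its neutrophils at 0 (50.6%) than the young library (67.0%) and more in every bin above 0.

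Free RNA in droplets was read from cells that should lack these transcripts. At least 1 UMI of the 3 genes was found in 11 of 104 NK and follicular B cells of the aged library (10.6%) and in 2 of 87 of the young library (2.3%), with median depths of 2847 and 2079 UMIs. A sum of 3 or more was found in 0 of 104, where 3 counts would be a share of 2.88% and the exact upper limit was 3.48%, and in 0 of 87, where 3 counts would be 3.45% and the limit was 4.15%. Thinned to 1000 UMIs, 1 of 104 and 2 of 87 had a UMI, against 35.8% of aged and 24.9% of young neutrophils. In other populations the 3 genes summed to 27.9 CPM (the UMIs of a gene scaled to the same total in each group of cells) in aged and 12.2 CPM in young monocytes, against 1122 CPM in aged and 581 CPM in young neutrophils.

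The aged library held 13752454 UMIs and the young library 6440664, with 1430186 of them in aged and 311487 in young early cells. Early cells were deeper than late cells, at a median of 2443 against 1763 UMIs in the aged and 2217.5 against 1562 in the young library. Thinned to 1000 UMIs they showed fewer genes, 322 in early against 341.5 in late cells of the aged library and 354 against 391 in the young library. The barcodes of 12 cells stood in both libraries, 2 of them aged early cells and none young early cells. Of 8 neutrophil markers, S100a8 was at 226270 CPM in aged and 208530 CPM in young early cells. Ly6g, the antigen of the sort, was at 824 and 607 CPM. Against late cells, 0 of the 8 were at least 1.5-fold higher and 1 lower in the aged library. In the young library 2 were higher and 1 lower, and Csf3r was the lower gene in both. Over all genes 7.41% were higher and 14.7% lower in the aged library, and 8.37% and 28.9% in the young library. Of markers of other cells, the 6 red cell genes, mainly globins, summed to 234 CPM in aged early against 287 CPM in aged late cells, and to 937 against 1010 CPM in young cells. The 10 monocyte and dendritic cell genes summed to 796 CPM in early against 502 CPM in late cells of the aged library and 928 against 568 CPM in the young library. Without Ly6c2 the other 9 of these genes were at 188 against 200 CPM and at 308 against 295 CPM, so the excess was in Ly6c2, which mouse neutrophils also express. B cell genes summed to 4.20 and 0 CPM in aged and young early cells. At least 3 UMIs of these and of NK, T cell and platelet markers together were found in 250 (46.4%) of aged early and 327 (24.1%) of aged late cells, and in 106 (80.3%) of young early and 416 (54.2%) of young late cells. That count is not scaled to depth, and Ly6c2 UMIs add to it. Thinned to 1000 UMIs, the shares were 12.8% of aged early and 6.86% of aged late cells, and 37.9% and 24.6% in the young library. Leaving out the cells found without thinning kept 289 aged and 26 young early cells, and shares of 15.6% and 5.6% of neutrophils.

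Against late cells, early neutrophils held more Itgb2l, Serpinb1a, Cd177 and Ifitm6 transcripts and less Il1b, Wfdc17 and Ccl4, in both libraries. The young values of Itgb2l and Ccl4 rest on 23 and 4 early UMIs. In the aged library 3409 genes reached 50 UMIs, of which 32 (0.939%) were past 2-fold on the higher side in early cells and 65 (1.91%) on the lower side. Of 2165 such genes in the young library, 23 (1.06%) were higher and 178 (8.22%) lower. With TMM scaling the split was 43 higher and 53 lower in the aged library and 29 and 130 in the young library. Late cells drawn to bring their depth nearer to that of early cells, with medians of 2185.5 UMIs in the aged and 2121 in the young library and still below the early cells, gave 23 and 32 of 2409 genes and 11 and 18 of 936 genes. Drawing fewer cells also cut the number of genes that reached 50 UMIs. The young count of lower genes thus moved with the choice of late cells, and the parts of depth and of cell number in this were not separated. Because the cells were chosen by counts from the same libraries, these numbers describe the choice and support nothing beyond it.

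Serpinb1a, an inhibitor of neutrophil serine proteases, was at 297 CPM in early and 92.8 CPM in late cells of the aged library, a ratio of 3.20 (2.73 to 3.77). In the young library it was at 99.5 CPM in early and 24.9 CPM in late cells, a ratio of 4.00 (2.36 to 6.77) that rests on 31 early UMIs. When cells with 3 or more UMIs of other cell types were left out, the aged ratio was 2.56 and the young ratio 1.04, the young one over 26 early cells. Ifitm6, a member of the IFITM family of membrane proteins, was at 5934 against 2624 CPM in the aged library, with a ratio of 2.26 (2.19 to 2.34), and at 3342 against 742 CPM in the young library, a ratio of 4.51 (4.12 to 4.93). Cd177, a surface glycoprotein stored in specific granules, was at 345 against 134 CPM in the aged library, with a ratio of 2.57 (2.23 to 2.95), and at 372 against 97.2 CPM in the young library, a ratio of 3.83 (2.95 to 4.97). All 3 genes were thus higher in early cells of both libraries, Serpinb1a with the exception given. These genes marked such cells in earlier work on the same table, so their direction is no separate evidence.

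In single cells thinned to 1000 UMIs, a Cd177 UMI was seen in 27.3% (23.6% to 31.2%) of aged early and 11.9% (10.3% to 13.8%) of aged late cells, and in 28.8% (21.2% to 37.3%) of young early and 8.21% (6.37% to 10.4%) of young late cells. Without thinning the shares were 52.9% against 20.5% and 54.5% against 13.4%. NK and follicular B cells had none at this depth, 0 of 104 and 0 of 87. Ifitm6 was seen in 95.4% of aged early and 78.2% of aged late cells, and in 82.6% of young early and 37.4% of young late cells, against 15.4% and 2.3% of NK and B cells, all thinned. A Serpinb1a UMI was seen in 20.2% of aged early and 8.26% of aged late cells. In the young library it was seen in 7.58% (3.69% to 13.5%) of early and 2.35% (1.40% to 3.68%) of late cells, and the 3.45% of NK and B cells lies within the first of these intervals.

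Other genes ranked highest in the aged library by the lower bound of their ratio. Itgb2l, a beta-2 integrin-like gene, was at 88.1 CPM in early against 20.6 CPM in late cells, a ratio of 4.28 (3.08 to 6.02), and at 73.8 against 10.9 CPM in the young library, a ratio of 6.78 (3.35 to 14.3). The young ratio rests on 23 early and 14 late UMIs, together under the 50 UMIs from which 2-fold differences were counted. Adpgk, an ADP-dependent glucokinase, had ratios of 2.99 (2.3 to 3.92) and 6.19 (3.82 to 10.2) in the aged and young library. Nt5c3, a cytosolic nucleotidase gene, had ratios of 2.12 (1.70 to 2.64) and 2.44 (1.39 to 4.18), though among the 25 young cells with a sum of 10 or more the ratio was 0.928. Ly6c2, a surface antigen shared with monocytes, had ratios of 2.01 (1.83 to 2.22) and 2.27 (1.90 to 2.71). Anxa3, an annexin of neutrophil granules, had ratios of 2.55 (1.92 to 3.39) and 2.58 (1.05 to 6.05), and Capg, an actin-capping protein, 1.99 (1.69 to 2.36) and 1.74 (1.14 to 2.61). Young early UMIs numbered 45 for Adpgk, 23 for Nt5c3, 10 for Anxa3 and 35 for Capg. Ratios in the aged library were 2.26 (1.65 to 3.10) for Rab3d, a small GTPase of secretory granules, and 3.0 (2.02 to 4.51) for the nuclear envelope gene Syne1. In the young library both had intervals that included 1, at 1.54 (0.858 to 2.65) and 1.82 (0.922 to 3.44), and at a sum of 10 or more these ratios were 0.355 and 0.532. Others of the ranking were Tssc1, Tinagl1, Rogdi, Tmem256, Pabpc1l and Ceacam10, at aged ratios between 2.19 and 4.13, with fewer than 50 young early UMIs each. The young ratio of Tmem256, 2.33, was 0.946 without cells carrying markers of other types.

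Several specific granule transcripts beyond Camp, Ltf and Ngp were higher in early cells, and Lcn2 less so. A list gene was measured from 20 UMIs and counted from a 1.5-fold difference, which over all genes was met by 7.41% higher and 14.7% lower in the aged library and by 8.37% higher and 28.9% lower in the young library. Of 20 measured specific granule genes 8 were higher and 0 lower in the aged library, with a median log2 ratio of 0.42 against −0.12 over all genes. Among young cells 6 of 19 were higher and 1 lower, with a median of 0.35 against −0.24. Mmp8, neutrophil collagenase, was at 2179 CPM in early against 1261 CPM in late cells of the aged library, a ratio of 1.73 (1.64 to 1.82), and at 2616 against 804 CPM in the young library, a ratio of 3.25 (2.97 to 3.57). Lcn2, the iron-sequestering lipocalin, was under the 1.5-fold line with ratios of 1.36 (1.33 to 1.39) in the aged and 1.43 (1.37 to 1.5) in the young library. Chil3, a chitinase-like secreted protein, was at 893 against 429 CPM in the aged library, with a ratio of 2.08 (1.92 to 2.26), and at 1.38 (1.17 to 1.62) in the young one. Thinned to 1000 UMIs, a Chil3 UMI was seen in 45.1% of aged early and 27.4% of aged late cells. The share in aged NK and follicular B cells was 24.0% (16.2% to 33.4%), an interval that holds the late value. In the young library the 3 shares were 37.9%, 30.9% and 18.4%. Cybb, the membrane subunit of the NADPH oxidase, had ratios of 1.99 (1.41 to 2.83) and 2.06 (1.19 to 3.48), and Ceacam10 of 2.19 (1.79 to 2.67) and 1.52 (1.06 to 2.15). The member that was lower in the young library was B2m, the light chain of class I molecules, at 0.446 (0.389 to 0.510), and at 0.711 (0.666 to 0.758) in the aged library. Per cell, thinned to 1000 UMIs, the median share of UMIs from the list was 2.7% in aged early against 2.2% in aged late cells, and 2.5% against 2.0% in young cells.

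Transcripts of the stages before and after were at other levels. The azurophilic genes Mpo and Ctsg, myeloperoxidase and cathepsin G, had 0 UMIs in early cells of both libraries. There 3 counts would be 2.1 CPM in the aged and 9.63 CPM in the young library. Prtn3, proteinase 3, was at 29.4 CPM in early and 25.2 CPM in late cells of the aged library, and at 22.5 CPM in both classes of the young library. Of 9 measured azurophilic genes 1 was higher and 2 lower in the aged library, with a median of −0.01, and of 8 in the young library 0 were higher or lower, with a median of −0.32. For these counts and those of the gelatinase list below, all genes gave 7.41% higher and 14.7% lower in the aged library. In the young library all genes gave 8.37% and 28.9%. The medians of all genes were −0.12 and −0.24. Summed over the list the early over late ratio was 0.678 (0.658 to 0.699) in the aged and 0.711 (0.666 to 0.759) in the young library. Most of those UMIs were of Srgn, the serglycin proteoglycan of granules, at 0.625 (0.603 to 0.647) and 0.699 (0.648 to 0.754). Of gelatinase granule and secretory vesicle genes 0 of 13 were higher or lower in the aged library, with a median of −0.06, and 1 of 12 was higher and 1 lower in the young library, with a median of 0.04. Their summed ratios were 0.907 (0.891 to 0.922) and 0.857 (0.829 to 0.885). In that list Mmp9, gelatinase B, had ratios of 1.20 (1.13 to 1.27) and 1.44 (1.29 to 1.61), and Prok2, a prokineticin secreted by granulocytes, of 1.33 (1.19 to 1.49) and 3.24 (2.57 to 4.07), in the aged and young library. Slpi, a secreted protease inhibitor, had ratios of 0.840 (0.809 to 0.872) and 0.638 (0.597 to 0.680), and was the lower member in the young library. With TMM scaling the aged medians of the azurophilic, gelatinase and cell cycle lists changed sign. The proliferation gene Mki67 had 1 UMI in aged and 0 in young early cells, and Cdk1 and Ccnb1 had 0 in both. Cebpe, the C/EBP factor of the specific granule stage, was at 35.0 against 21.8 CPM in the aged library, with a ratio of 1.61 (1.08 to 2.40), and at 1.20 (0.438 to 2.88) over 7 early UMIs in the young library. S100a8, a calprotectin subunit, had ratios of 1.16 (1.15 to 1.16) and 1.32 (1.3 to 1.33), and Ly6g of 1.12 (1.04 to 1.21) and 1.74 (1.46 to 2.07).

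Many transcripts of mature neutrophils were lower in early cells. Like the other gene lists, the mature list was chosen with earlier results of these data known, so its direction is no separate evidence. Of 24 measured mature genes 12 were at least 1.5-fold lower in the aged library and 14 in the young library, with 0 higher in either, and the medians were −0.57 and −0.60. Over all genes 7.41% were higher and 14.7% lower in the aged library, with a median of −0.12. In the young library 8.37% of all genes were higher and 28.9% lower, with a median of −0.24. Il1b, the inflammatory cytokine, was at 475 CPM in early against 1292 CPM in late cells of the aged library, a ratio of 0.367 (0.338 to 0.399), and at 921 against 2283 CPM in the young library, a ratio of 0.404 (0.356 to 0.456). Wfdc17, a small secreted whey acidic protein domain gene, had ratios of 0.414 (0.405 to 0.422) and 0.567 (0.547 to 0.588). Csf3r, the receptor for granulocyte colony-stimulating factor, was at 390 against 680 CPM in the aged library, with a ratio of 0.573 (0.520 to 0.631), and at 559 against 1121 CPM in the young library, a ratio of 0.498 (0.423 to 0.584). Fgl2, a secreted fibrinogen-like protein, had ratios of 0.452 (0.375 to 0.541) and 0.300 (0.213 to 0.412). Ccl4, a chemokine, had ratios of 0.329 (0.249 to 0.429) and 0.149 (0.0398 to 0.392), the second over 4 early UMIs. Ifitm1 was at 0.579 (0.563 to 0.596) and 0.552 (0.519 to 0.587), on the other side of 1 from Ifitm6 of the same family. Cxcr2, through which neutrophils respond to CXC chemokines, had ratios of 0.749 (0.692 to 0.810) and 0.809 (0.696 to 0.936). Thinned to 1000 UMIs, the median share from the mature list was 5.5% per cell in aged early against 8.5% in aged late cells, and 6.3% against 9.6% in young cells.

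In the aged library genes of activation were lower more often than all genes. Of AP-1 and immediate early genes 8 of 14 were lower and 0 higher in the aged library and 5 of 15 lower and 0 higher in the young library, with medians of −0.60 and −0.47. Over all genes 14.7% were lower in the aged and 28.9% in the young library, so the young count of AP-1 genes was near the background. Junb, an AP-1 subunit that is also in the mature list, had ratios of 0.624 (0.574 to 0.677) and 0.662 (0.589 to 0.742). Fos had ratios of 0.638 (0.580 to 0.701) in the aged and 0.921 (0.822 to 1.03) in the young library. Inflammatory chemokine and cytokine genes had medians of −0.55 and −0.93, with 7 of 14 lower and 0 higher in the aged and 8 of 14 lower and 1 higher in the young library. Interferon-stimulated genes had a median of −0.81 in the aged library, with 14 of 21 lower and 2 higher, and of −0.31 in the young library, with 7 of 16 lower and 0 higher, where the median of all genes was −0.24. Isg15, a ubiquitin-like antiviral protein, was at 43.3 against 101 CPM in the aged library, with a ratio of 0.431 (0.321 to 0.571), and Slfn1 at 0.633 (0.562 to 0.712). Isg15 in the young library was at 0.574 (0.340 to 0.919) and Slfn1 at 0.586 (0.463 to 0.734). The young interferon median changed sign with the cells used, at 0.14 among cells with a sum of 10 or more and 0.09 without cells carrying other markers. Other genes ranked lowest in the aged library were Sirpb1b, a signal-regulatory protein gene, at 0.415 (0.348 to 0.492), the cystine transporter gene Slc7a11 at 0.465 (0.399 to 0.540), Steap4, a metalloreductase, at 0.369 (0.244 to 0.543), Hcar2, the niacin receptor, at 0.247 (0.0946 to 0.547), and Isg20, an interferon-induced exonuclease, at 0.382 (0.251 to 0.566). Their young ratios were 0.461, 0.559, 0.0621, 0.188 and 0.336, each with an interval under 1, and Steap4 and Hcar2 had 2 young early UMIs each. Hist1h2bc, a histone gene whose near-identical copies can share reads, was at 0.433 and 0.322, and Ptma at 0.449 and 0.585, the young value being 1.09 without cells carrying other markers. Cxcl2, a neutrophil-attracting chemokine, was at 0.510 (0.482 to 0.540) in the aged library and at 1.07 (0.970 to 1.18) in the young library.

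**Figure D2:**
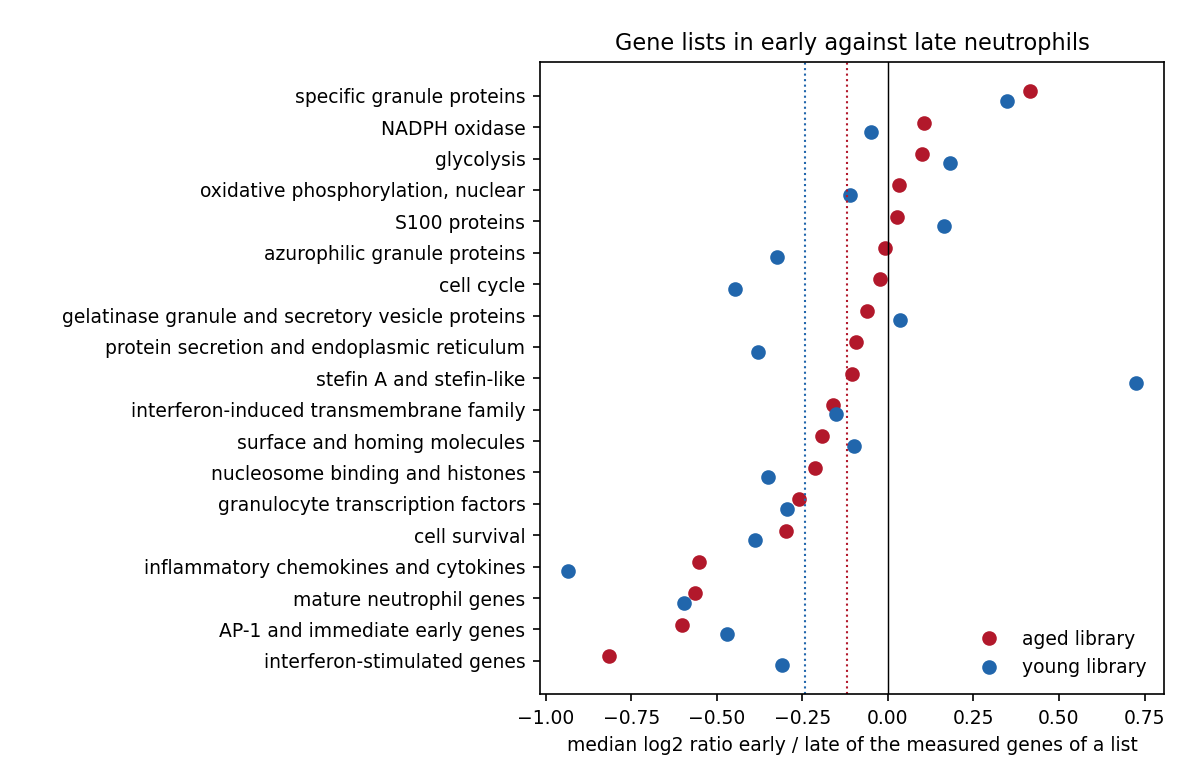
Median log2 ratio of early over late cells (x axis) for the measured genes of each list (rows), in the aged library (red) and the young library (blue), with dotted lines at the median of all genes from 20 UMIs, −0.12 in the aged and −0.24 in the young library. Specific granule genes lay above 0 in both libraries, and mature, AP-1, interferon-stimulated and inflammatory genes below the median of all genes in both.

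The genes of the rule were also set against each other, as a description. Grouped by Ngp alone, neutrophils of the aged library with 0, 1 to 2, 3 to 4, 5 to 9 and 10 or more Ngp UMIs held Camp at 15.9, 21.2, 30.6, 118 and 933 CPM. In the young library the same classes held Camp at 3.85, 15.5, 26.1, 73.4 and 118 CPM, over 5, 7, 3, 9 and 8 UMIs. The young levels rest on few UMIs. Ltf was at 0.755, 1.25, 3.60, 6.78 and 143 CPM in the aged library, with 56 of its UMIs in the 118 cells of the top class, and had 1 UMI in the lowest, 1 in the highest and 0 in the other young classes. Of the 366 Camp UMIs in the aged top class, 96 were in the single cell named above. Median depth also climbed over these classes, between 1765 and 3168.5 UMIs in the aged and 1562 and 2705.5 UMIs in the young library, and its part was not tested.

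By the sum of the 3 genes, Ifitm6 was at 2624, 3418, 4101, 4467, 4965, 5604 and 8069 CPM in aged neutrophils with a sum of 0, 1, 2, 3, 4, 5 to 9 and 10 or more. Young neutrophils held it at 742, 1141, 1555, 2399, 3332, 3165 and 4500 CPM. Il1b ran the other way, at 1292, 1046, 798, 636, 535, 488 and 288 CPM in the aged library and at 2283, 1592, 1627, 1113, 963, 955 and 661 CPM in the young library. Cells with a sum of 3, just inside the threshold, and of 2, just outside it, lay next to each other in this order, with Cd177 at 243 and 239 CPM and Mmp8 at 2016 and 1636 CPM in the aged library. Median depth was 1763 UMIs at a sum of 0 and 3138.5 at 10 or more in the aged library, and 1562 and 2712 in the young one. Its part was not tested. Counting error also mixes cells between neighbouring sums, so this order cannot tell a range from separate groups.

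**Figure D3:**
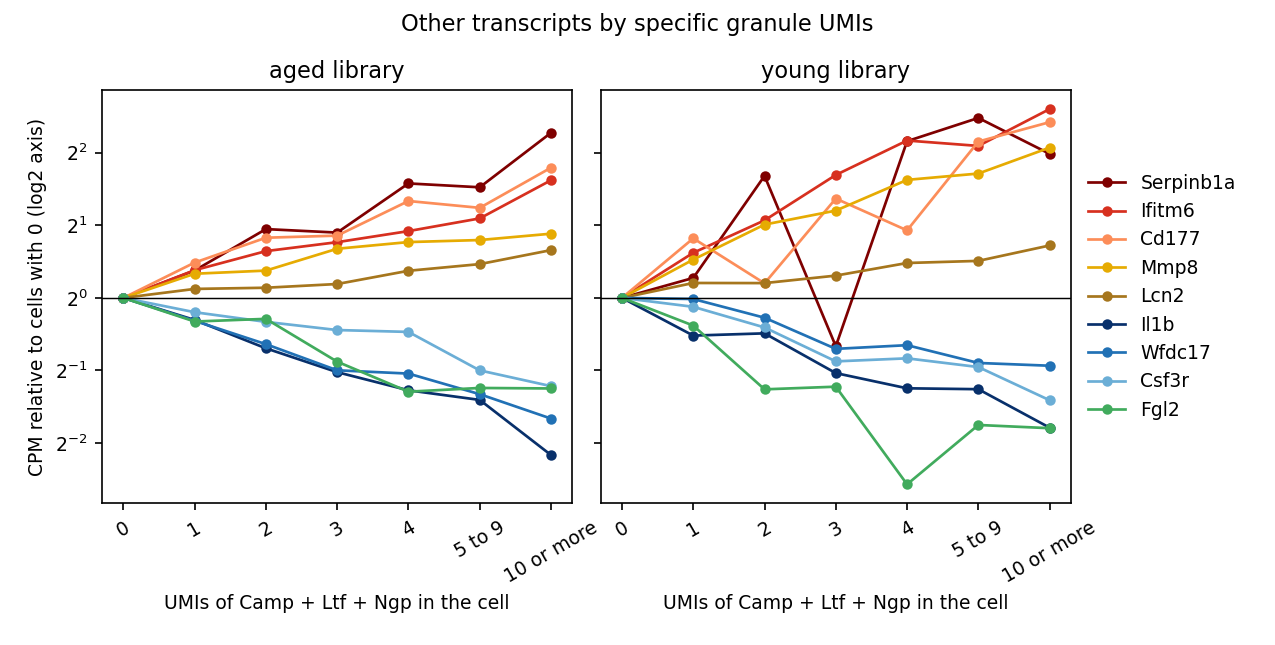
CPM of 9 genes relative to neutrophils with a sum of 0 (log2 y axis) by the UMIs of Camp, Ltf and Ngp in the cell (x axis), aged library left and young library right. Granule and surface genes climb with the sum and Il1b, Wfdc17, Csf3r and Fgl2 decline, with jumps in the young library where few UMIs stand behind a point, as in Serpinb1a at a sum of 3 (15.7 CPM).

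The libraries were next compared for the same split. Of 2153 genes measured in both, 6 were at least 2-fold higher in early cells of both libraries, namely Serpinb1a, Adpgk, Cd177, Ifitm6, Nt5c3 and Ly6c2. At least 2-fold lower in both were 17, among them Il1b, Ccl4, Fgl2, Isg20, Il15 and Oasl2. Not 1 gene was 2-fold higher in one and 2-fold lower in the other. The 12 genes higher in the aged library and the 23 in the young one share these 6, 50% of the first list and 26.1% of the second, and the 35 and 173 lower genes share the 17, 48.6% and 9.83%. Across 754 genes with at least 200 UMIs in both libraries the log2 ratios had a Pearson r of 0.681 and a Spearman rho of 0.618, given as a description across genes, which are not independent replicates, in libraries whose early cells were both deeper than their late cells.

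**Figure D4:**
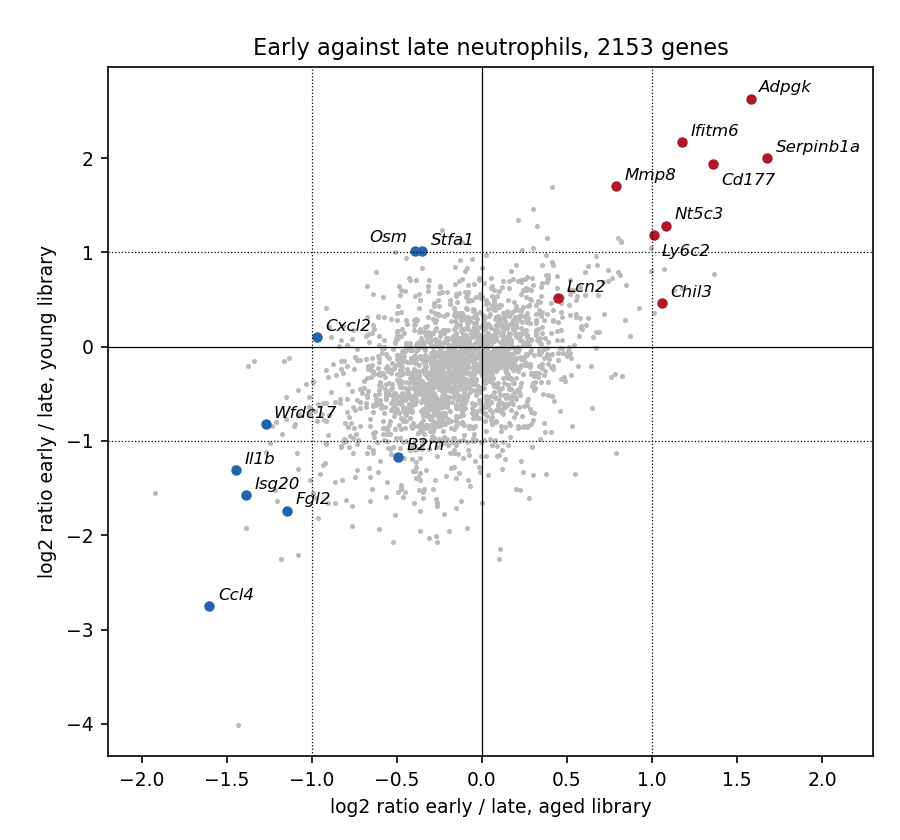
Log2 ratio of early over late cells in the aged library (x axis) and in the young library (y axis) for 2153 genes, each a point, with dotted lines at 2-fold. Serpinb1a, Adpgk, Cd177 and Ifitm6 lie at the upper right, Il1b, Ccl4 and Fgl2 at the lower left, and Osm and Stfa1 lie above 0 in the young library alone.

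Early cells of the aged library were then set against early cells of the young library. A total of 1963 genes reached 50 UMIs, of which 45 (2.29%) were past 2-fold on the higher side in aged early cells and 61 (3.11%) on the lower side. With TMM scaling, which moved all log2 ratios up by 0.26, the split was 94 higher and 25 lower, so directions near 1 are not given. At the threshold of 1.5-fold from 20 UMIs, 12.2% of genes were higher and 19.7% lower, with a median of −0.13. Of the genes that defined the cells, Camp was at 319 CPM in aged and 77.0 CPM in young early cells, Ltf at 44.1 and 3.21 CPM and Ngp at 3355 and 2761 CPM, given as a description.

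Serpinb1a was higher in the aged library among early cells, at 297 against 99.5 CPM, a ratio of 2.99 (2.07 to 4.45), and also among late cells at 3.73 (2.57 to 5.58). Leaving out cells with markers of other types gave 11.7 in early cells. That value has no interval here and rests on 26 young early cells, where all 132 held only 31 Serpinb1a UMIs. Cd9, a tetraspanin, had a ratio of 2.42 (1.97 to 3.0) in early and 2.02 (1.82 to 2.25) in late cells. Ltb4r1, the leukotriene B4 receptor, was at 296 against 141 CPM in early cells, a ratio of 2.1 (1.54 to 2.93), and at 2.38 (2.01 to 2.83) in late cells. Il1r2, the decoy receptor of interleukin-1, was at 1147 against 668 CPM in early cells, a ratio of 1.72 (1.49 to 1.99), and at 2.39 (2.20 to 2.60) in late cells. Anxa3 had ratios of 2.68 (1.41 to 5.73) and 2.72 (1.58 to 4.96) in early and late cells, Esd, an esterase gene, 2.05 (1.37 to 3.20) and 1.67 (1.37 to 2.04), and Ifitm2 1.46 (1.38 to 1.56) and 1.33 (1.29 to 1.37). Cd38, which consumes NAD, had 63 aged and 2 young early UMIs, a ratio of 6.86 (1.82 to 57.9), and Hist2h2aa1, whose histone copies can share reads, 3.76 (1.85 to 8.88). Ifitm6 was at 5934 against 3342 CPM in early cells, a ratio of 1.78 (1.66 to 1.90), below the 3.54 (3.31 to 3.79) of late cells by more than the counting intervals.

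Lower in aged early cells were genes of the immediate early response. Fos, an AP-1 subunit, was at 415 against 1220 CPM, a ratio of 0.340 (0.299 to 0.388), and at 0.492 (0.459 to 0.526) in late cells. Junb had ratios of 0.482 (0.424 to 0.549) and 0.512 (0.482 to 0.543), Jund 0.458 (0.385 to 0.545) and 0.560 (0.517 to 0.608), and Dusp1, a MAP kinase phosphatase, 0.527 (0.478 to 0.582) and 0.624 (0.595 to 0.655), in early and late cells. As a list, 0 of 13 AP-1 and immediate early genes were higher and 5 lower, with a median of −0.56, or −0.30 with TMM scaling. The shares over all genes, here and for the monocyte and dendritic cell genes below, were 12.2% higher and 19.7% lower. Il1b was at 0.515 (0.448 to 0.594) in early and 0.566 (0.539 to 0.595) in late cells. Retn, the resistin gene, was at 0.242 (0.139 to 0.423) over 30 aged and 27 young UMIs, Wdr89 of 0.319 (0.227 to 0.451), and Slc15a3, a peptide transporter, of 0.391 (0.253 to 0.613). Osm, the cytokine oncostatin M, was at 139 against 334 CPM in early cells, a ratio of 0.417 (0.327 to 0.533), while the late ratio was 1.11 (0.940 to 1.31). Stfa1, a stefin that inhibits cysteine proteases and has near-identical copies, had a ratio of 0.334 (0.259 to 0.432) in early cells. That value rests on few cells, since 12 young early cells held its 103 UMIs and 3 of them 71.8%, and it was 1.62 without cells carrying markers of other types. Red cell genes, at 234 CPM in aged and 937 CPM in young early cells, moved with the library too, as did monocyte and dendritic cell genes, of which 0 of 8 were higher and 5 lower in aged early cells with a median of −0.85. Without cells that carried at least 3 UMIs of other types, which left 26 young early cells, 12 of the 19 named ratios that could be computed moved and 1, that of Stfa1, changed side. Among those that moved, the ratios were then 1.01 for Anxa3, 1.76 for Cd38, 1.22 for Ltb4r1, 0.196 for Wdr89 and 1.97 for Cd9. Jund at 0.603, Dusp1 at 0.586 and Osm at 0.568 moved too, each towards 1. Fos at 0.380, Junb at 0.442, Il1b at 0.482, Ifitm6 at 1.71 and Retn at 0.153 stayed within the intervals given above.

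Specific granule genes did not separate the libraries as a group within early cells, where 2 of 20 were higher and 2 lower with a median of 0.07, or 0.33 with TMM scaling. Over all genes 12.2% were higher and 19.7% lower, with a median of −0.13 before TMM scaling. Mmp8 had a ratio of 0.833 (0.771 to 0.901), which the shift of TMM scaling brings close to 1, and Chil3 a ratio of 1.43 (1.23 to 1.67). Because early cells were more frequent in the aged library, ratios over all neutrophils were also computed with the aged early, middle and late cells weighted to the young UMI shares. The aged over young ratio was then 3.31 for Serpinb1a against 3.91 unweighted, 2.68 against 3.0 for Ifitm6, 1.20 against 1.37 for Cd177 and 1.24 against 1.34 for Mmp8.

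**Figure D5:**
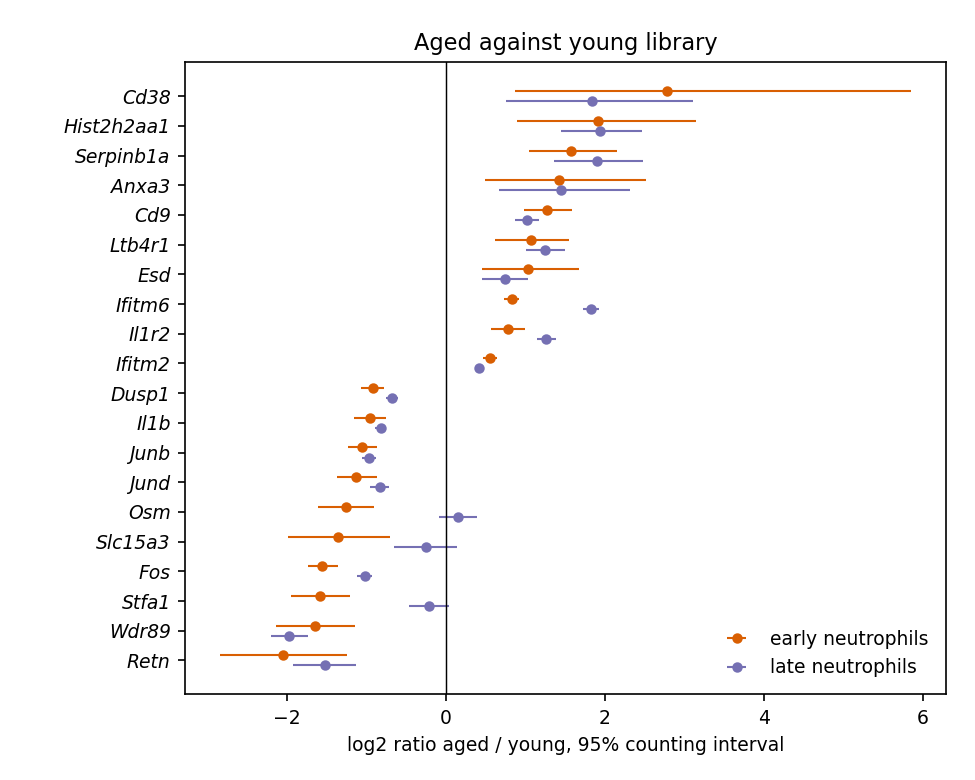
Log2 ratio of aged over young (x axis) in early neutrophils (orange) and in late neutrophils (purple) for the 20 genes ranked highest and lowest in early cells, with exact 95% counting intervals. The ratio of Ifitm6 was lower in early (1.78) than in late cells (3.54), and Osm and Stfa1 were below 1 in early cells while their late intervals included 1.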

How the data were processed

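Counts were deposited by the authors as 1 table of whole UMI counts for 11691 genes in 5793 cells, with the authors' cell type for each cell. Per the submitters' processing notes Cell Ranger 2.1.1 and mm10 were used, and the labels name a 10x 3′ kit and sorted CD11b+ blood cells. Filters on cells and doublets are not given in the labels.

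From these counts UMIs were summed over early, middle and late neutrophils of each library and divided by the summed UMIs of all genes (CPM). Ratios carry exact conditional binomial 95% intervals, and shares Clopper-Pearson ones. With 1 library per age no test was run. A gene at 0 was set to a floor of 3 counts over the group in list medians. Differences of 2-fold were counted from 50 UMIs over all genes and of 1.5-fold from 20 UMIs within 19 gene lists. The rule for naming took the 20 highest and 12 lowest genes in the aged library and 10 each way for aged over young early cells, by the interval bound nearest to 1, and then list members. It left out Camp, Ltf, Ngp, ribosomal, mitochondrial, globin and sex-linked genes, pseudogenes and unnamed models, and some results that the rule would name are not reported here. The cells and lists were chosen with earlier results of these data known. Cells were thinned with a fixed seed. The steps were checked on simulated counts.

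Alternatives changed the threshold, the depth, the lowest UMIs, the scaling (TMM, edgeR 4.0.16 in R 4.3.3), putative doublets (Scrublet in scanpy 1.11.5) and cells with markers of other types. Other steps used Python 3.11.15, numpy 2.4.6, scipy 1.17.1, pandas 2.3.3 and matplotlib 3.10.9. Early cells held 1430186 UMIs in the aged and 311487 in the young library, so young values are the less precise.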

Additional observations from a re-analysis of the deposited data

Results flagged for a closer look

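Early over late ratios on opposite sides of 1 were searched for only among the named genes and the members of the gene lists. For 7 of them the interval lay on one side of 1 in the aged library and on the other in the young library. How many of all genes do so was not counted, and the difference between the libraries was not tested. Osm had a ratio of 0.762 in the aged and 2.03 in the young library, and G0s2, an inhibitor of fat breakdown, 0.903 and 1.39. Il1r2, the decoy receptor, had ratios of 0.898 and 1.25. Stfa1 had ratios of 0.784 and 2.02, and its relative BC100530 of 0.741 and 1.65. In young early cells 4 cells held all 52 UMIs of BC100530 and 3 of them 98.1%. Cd52, a small surface glycoprotein, had ratios of 1.03 and 0.843, and Fth1, the ferritin heavy chain, 1.03 and 0.845.

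Cells with a sum of at least 3 were also found outside the Neutrophil label. They were 12 of 993 monocytes in the aged library (1.21%, 0.626% to 2.1%) and 1 of 552 in the young library (0.181%), with a highest sum of 23. The aged library had 1 more among 107 cells labelled cDC and 1 among 44 labelled Mast cell. Monocytes were deeper than neutrophils, with medians of 6366 UMIs in the aged and 6604 in the young library.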

How the results depend on the processing

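No paired analysis was possible because each age had 1 library, and for the same reason no library could be left out. The share of early cells, 20.1% in the aged and 11.5% in the young library, was higher in the aged library under every alternative run. It was 28.6% and 17.2% at a sum of 2, 10.97% and 6.47% at 5, 4.77% and 2.19% at 10 (chosen after seeing the data), 9.29% and 5.86% with the rule on thinned cells, and 15.6% and 5.6% without cells carrying markers of other types. The young share was 8.57% when Ly6c2 was not counted among those markers, also chosen after seeing the data.

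Counts of genes past 2-fold depended on the lowest UMIs taken. From 20 UMIs they were 99 higher and 221 lower in the aged library, 89 and 533 in the young library, and 202 and 221 for aged over young early cells, and from 200 UMIs 10 and 14, 9 and 23, and 4 and 16. With at least 10 UMIs expected in the smaller group the aged counts were 69 and 133. At a sum of 2 the young counts were 11 and 118, and at 5 the aged lower count was 133. At a sum of 10 they were 82 and 232 in the aged and 67 and 344 in the young library, with 22 genes higher for aged over young. The rule on thinned cells gave 58 and 190 in the aged library, 36 higher in the young library and 24 higher for aged over young. Late cells drawn nearer to the depth of early cells, 396 aged and 115 young and still shallower than these, gave 32 lower in the aged and 11 higher and 18 lower in the young library. Each cell thinned to 1000 UMIs gave 14 higher in the young library, and 18 higher and 30 lower for aged over young. TMM scaling gave 94 and 25 for aged over young. Leaving out cells with other markers gave 15 higher in the young library, and 84 higher for aged over young with Ly6c2 not counted.

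Scrublet called 0 aged and 4 young cells, so it gave no usable doublet filter. The 124 aged and 27 young cells with its highest scores, a number that grows with the size of the library, were left out as an alternative, 18 and 2 of them early. Of 608 list medians 588 stayed within the limits set for an unchanged value, 17 moved and 3 reversed. Those limits were medians of the interval bounds of single genes, not an interval of the list median. A median could thus change sign and still count as unchanged. The young cell survival median did so, from −0.39 to 0.18 without cells carrying other markers. A total of 30 crossed 0, most of them medians near 0. The 3 that reversed were the young stefin median, 0.72 in the main setting, at −0.52 without cells carrying other markers, −0.53 with Ly6c2 not counted and −0.13 from 200 UMIs. Of 820 early over late ratios 705 stayed, 112 moved and 3 reversed, and 11 in all crossed 1, among them young Rab3d, 1.54, at 0.781 with a sum of 5 and 0.355 at 10. Young Tmem256, at 2.33, was 0.946 and 0.972 without cells carrying other markers, with Ly6c2 counted and not counted, and young Nt5c3, at 2.44, was 0.928 at a sum of 10. Of 238 aged over young ratios 193 stayed, 43 moved and 2 reversed, both Stfa1, at 1.62 and 1.00 without those cells. The moves were uneven, with 12 of 19 ratios without cells carrying other markers, 10 of 19 at a sum of 10, 8 of 20 with TMM scaling and 7 of 20 with the rule on thinned cells. The causes were not tested. Young early cells were 132, with 311487 UMIs in all.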

Other observations

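The counts below are of genes past 1.5-fold between early and late cells, where all genes gave 7.41% higher and 14.7% lower in the aged library and 8.37% and 28.9% in the young library. Of 39 oxidative phosphorylation genes 1 was higher and 0 lower in the aged library, and 1 higher and 1 lower in the young library. Of glycolysis genes 2 of 18 were higher and 1 lower in the aged library and 3 of 16 higher and 2 lower in the young library. Of 7 NADPH oxidase genes 1 was higher and 0 lower in the aged and 2 higher and 0 lower in the young library, with Ncf1, a cytosolic subunit, at ratios of 1.31 and 1.69. Of myeloid transcription factors 1 of 14 was higher and 0 lower in the aged library, and 1 of 13 higher and 5 lower in the young library. Of 13 histone genes 0 were higher in either library, 3 lower in the aged and 4 lower in the young library. Of protein secretion and endoplasmic reticulum genes 2 of 31 were higher and 4 lower in the aged library, and 2 of 27 higher and 8 lower in the young library. Of cell survival genes 2 of 11 were higher and 1 lower in the aged library, and 0 of 9 higher and 2 lower in the young library. Of 7 stefin genes 1 was higher and 0 lower in the aged library and 4 higher and 1 lower in the young library, where few cells held the UMIs. The 7 S100 genes measured had medians of 0.03 and 0.16, with 0 past 1.5-fold in either library.

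Of surface and homing molecules 3 of 31 were higher and 3 lower in the aged library, and 3 of 30 higher and 4 lower in the young library. Cxcr4, the receptor that retains neutrophils in marrow, had early over late ratios of 0.671 (0.464 to 0.957) in the aged and 0.503 (0.266 to 0.878) in the young library. Thinned to 1000 UMIs, a Cxcr4 UMI was seen in 3.15% (1.85% to 5.0%) of aged early and 4.35% (3.33% to 5.58%) of aged late cells, intervals that overlap. Itga4, an integrin subunit, had ratios of 0.634 (0.385 to 1.01) and 0.384 (0.161 to 0.791), the young one over 8 early UMIs. Between early cells of the libraries, 1 of 39 oxidative phosphorylation genes was at least 1.5-fold higher and 6 lower in aged. Over all genes 12.2% were higher and 19.7% lower in this comparison, with a median of −0.13. The list median of −0.27 was −0.01 with TMM scaling.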
